A study of Canis lupus familiaris with 16 samples.

Results

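Dividing cells switch on a shared set of genes whose products condense the chromosomes, build the spindle, attach chromosomes to it, check that attachment and cut the cell apart. Here 50 such genes were followed in 16 canine soft tissue sarcomas, out of 41818 genes with a row in the count table. They were chosen by name as genes of mitosis and of the kinetochore, the protein plate on each chromosome that binds spindle fibers. They were chosen with earlier results of these data known, but not by a threshold on their values. They were arranged by the role of their products into cyclins and CDK1 (4 genes), kinesins (8), kinetochore (7), checkpoint, cohesion and anaphase (7), condensin and chromosome structure (7), mitotic kinases and the chromosomal passenger complex (7), other spindle-associated proteins (5) and cytokinesis (5). Most of these genes are silent in resting cells and are read out late in the cell cycle, so in a piece of tumor their RNA is commonly taken as a sign of how many cells divide. In bulk RNA, however, a larger share of dividing cells and more RNA in each dividing cell cannot be told apart.

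RNA came from formalin-fixed, paraffin-embedded surgical samples of pet dogs; the labels name no treatment. By molecular identity, 4 tumors were fibrosarcomas (FS; dogs aged 9 to 13 years), 6 were peripheral nerve sheath tumors (PNST; 8 to 13 years) and 6 were perivascular wall tumors (PWT; 2 to 14 years), of many breeds. Molecular identity differs from the histological diagnosis in 2 tumors, S1-10 (a PWT by histology, here PNST) and S2-08 (an FS by histology, here PWT). Because the study set it partly by how these same samples clustered by gene expression, the groups are not independent of the genes compared. S1-04 and S1-05 share all clinical entries and may come from 1 dog, so the 6 PNST may be 5 dogs. The prefix of the tumor names, S1 or S2, is a possible mark of the sequencing group and is unevenly spread, with 3 S1 and 1 S2 tumors in FS, 5 and 1 in PNST, and 1 and 5 in PWT. Depth, as the total count on genes, was lowest in S1-12 (507728) and highest in S1-03 (4311876), and such counts were 22.9% to 30.6% of the reads listed for each tumor. With at least 10 counts in at least 4 tumors, 48 of the 50 genes could be tested among 15408 genes, and levels are given as CPM, counts scaled to a common library size after TMM adjustment. CENPA, the histone variant that marks centromeres, had at most 3 counts in any tumor and was at 0 in all 6 PWT. NUF2, part of the NDC80 complex, reached 12.6 CPM in S1-11, 7.6 in S2-06 and 7.37 in S1-12, against 0.717 in S1-02, at most 3.36 in PNST and at most 3.83 in PWT. It was left out of the edgeR fit by the filter, while DESeq2's Wald test, run without that filter, called it higher in FS (1.94 ± 0.65, adjusted p = 0.0284). In the RefSeq table of another assembly, 12 of the 50 genes overlap a protein-coding neighbor (CCNA2, KIF20A, KIF4A, NCAPH, NCAPD2, CENPA, NDC80, AURKA, PLK1, ANLN, NUSAP1 and CKAP2), whose reads may not be separable. CPM depends on transcript length, so levels are compared here between tumors and not between genes.

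The 50 genes were highest in FS, lowest in PNST and in between in PWT, and within FS the level was carried mainly by S1-11 and S2-06. Their summed level was 1000.3 CPM in S1-02, 2283 in S1-11, 1116 in S1-12 and 4043 in S2-06. The 6 PNST lay in a narrow band from 676 to 753 CPM (711 ± 30.2, SD, n = 6). The 6 PWT ran from 879.6 in S1-07 to 1546 in S2-11 (1182 ± 222, SD, n = 6). All 6 PNST thus lay below the other 10 tumors, whereas FS and PWT overlapped. Counting error was small beside these gaps: the exact 95% Poisson interval was 1029 to 1208 CPM in S1-12, the shallowest tumor, and 3957 to 4130 CPM in S2-06, and such intervals cover counting error only. A single gene, NUSAP1, made up 2.80% to 31.6% of the sum and followed another pattern, and without it the sums were 848 to 3930 CPM in FS, 496 to 592 in PNST and 620 to 1225 in PWT. The gap between PNST and PWT was then within counting error. The interval of the highest PNST, S1-03 (566 to 618 CPM), overlapped that of the lowest PWT, S1-07 (584 to 658 CPM).

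**Figure D1:**
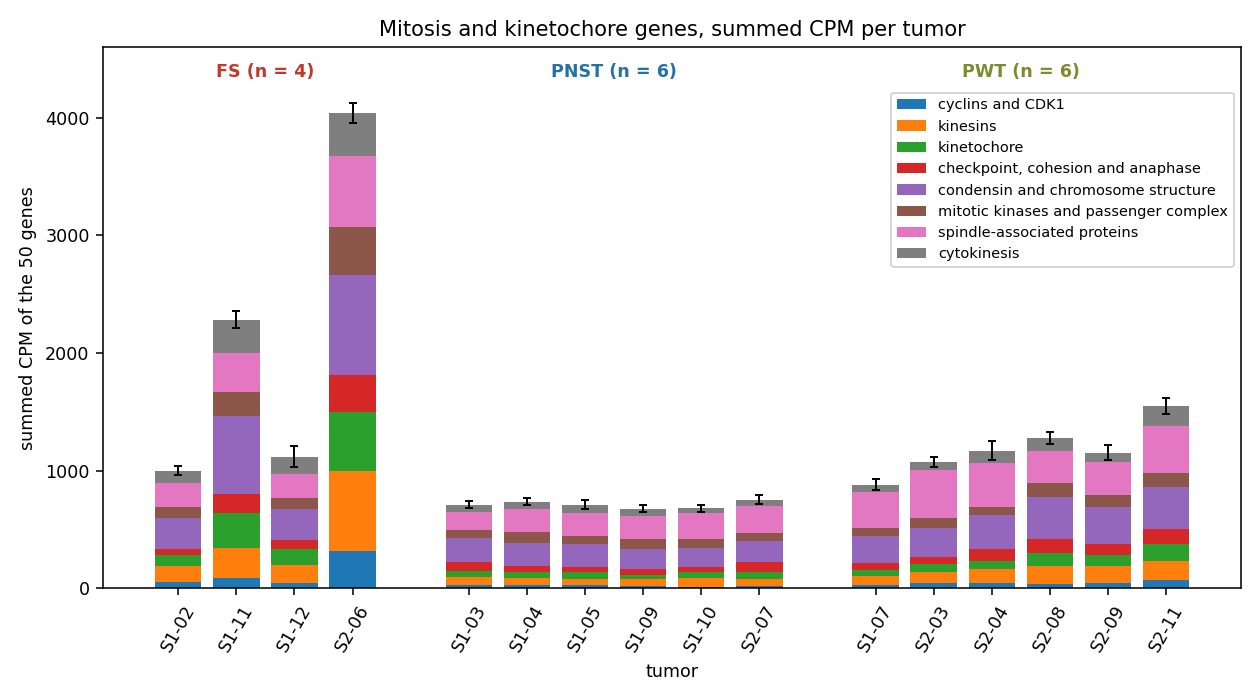
Each bar gives the summed CPM (y axis, from 0) of the 50 genes in 1 tumor (x axis), split by the 8 role groups in color, with the exact 95% Poisson interval of the sum as a black bar. S2-06 (4043 CPM) and S1-11 (2283 CPM) stand above all other tumors, and the 6 PNST lie between 676 and 753 CPM.

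The high level of S1-11 and S2-06 was spread over nearly the whole set. S2-06 was the highest of all 16 tumors for 42 of the 48 genes tested, and S1-11 for 4. The share of all genes that were highest in each of these tumors is not given here. S2-06 exceeded the highest PNST for 47 of 48 genes, where 25.6% of all 15408 genes did so, and S1-11 for 43 (21.5% of all genes). S1-02 and S1-12 exceeded every PNST for 29 and 22 of the 48 (23.1% and 24.7% of all genes). Among PWT this number ran from 10 in S1-07 (15.8% of all genes) to 37 in S2-08 (16.9%), with 24 in S2-03 (26.3%), 23 in S2-04 (22.3%), 31 in S2-09 (19.9%) and 36 in S2-11 (21.4%). Relative to the mean of PNST, the median gene was higher by 2.63 on the log2(CPM + 1) scale in S2-06, by 1.71 in S1-11, by 0.73 in S1-02 and by 0.61 in S1-12. In no gene of the 48 did every FS exceed every other tumor, which 1.56% of all genes did. Every FS exceeded every PNST in 17 of 48 genes (3.34% of all genes), and every PNST lay below every PWT in 7 (1.36%). In 3 of the 48 genes every PNST lay below each of the other 10 tumors (0.0974% of all genes). These were CCNA2, KNL1 and TPX2, and the study itself lists CCNA2 and KNL1 as lower in PNST in these tumors.

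**Figure D2:**
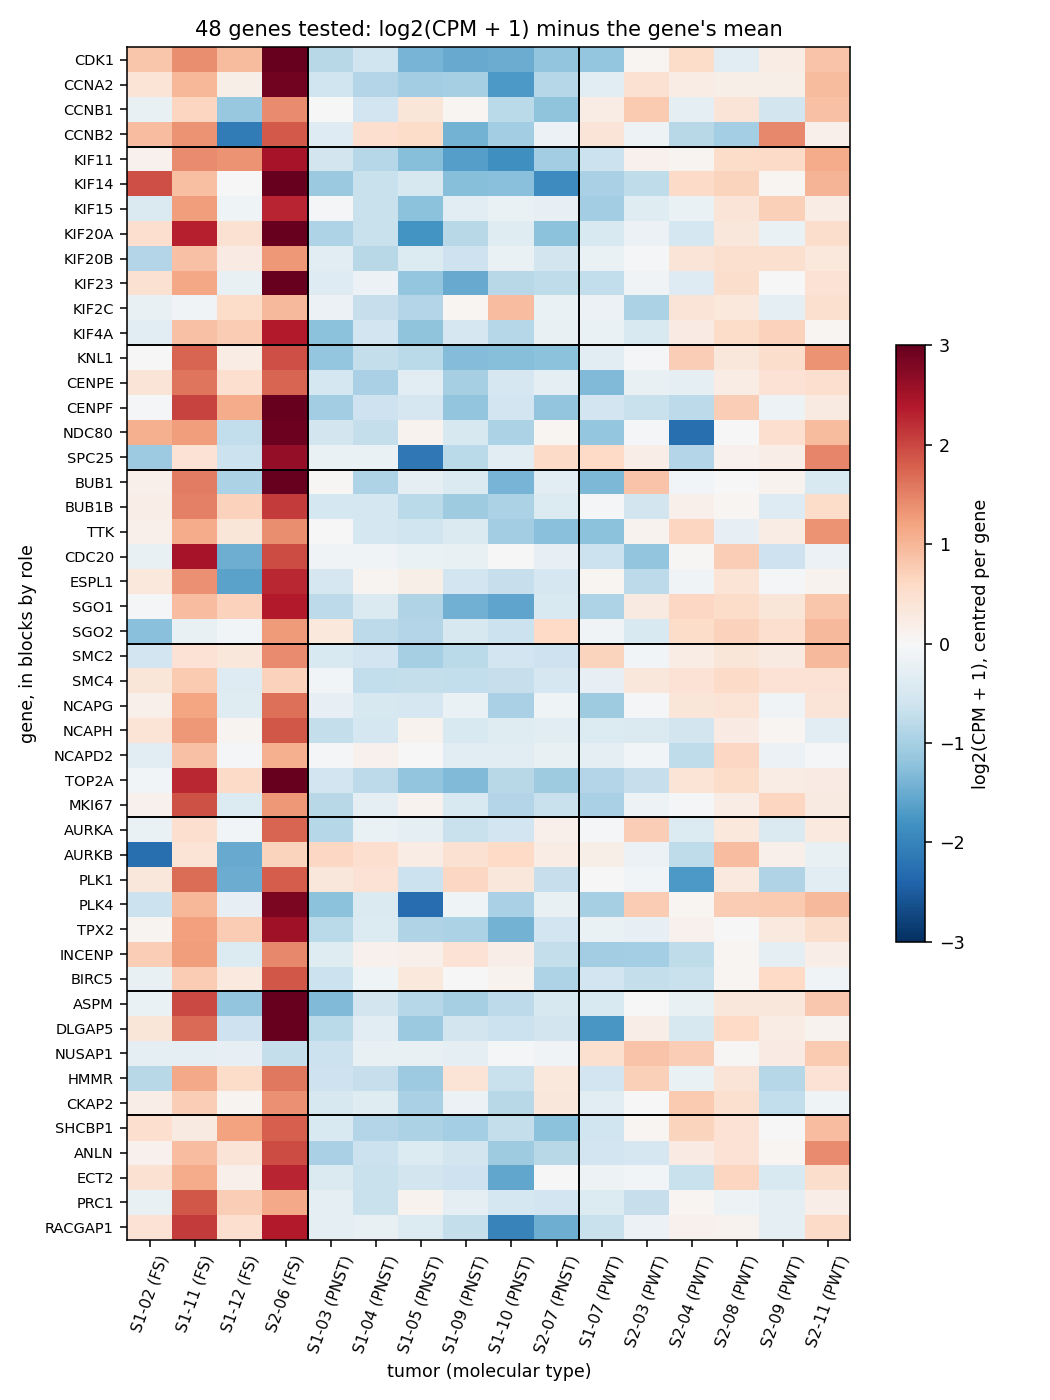
Rows are the 48 genes tested, in blocks by role, and columns the 16 tumors by molecular type. Color gives log2(CPM + 1) minus the gene's mean over tumors, with values beyond 3 drawn in the end colors. The S2-06 column is red in nearly every row, the S1-11 column in most, and the PNST columns are mostly blue, with NUSAP1 and AURKB as rows of another pattern.

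The first comparison asked which genes set FS apart from both other types. With edgeR's quasi-likelihood test on the counts, a call needed a Benjamini-Hochberg adjusted p under 0.05 over all 15408 genes and a log2 fold change beyond 1. In FS, 26 of the 48 genes rose and none fell, while 5.78% of all genes tested were called higher in FS. The median log2 fold change of the 48 was 1.43, against 0.00 over all genes, and 40 of the 48 had an unadjusted p under 0.05, as did 25.4% of all genes. The called genes were CDK1, CCNA2, KIF11, KIF14, KIF15, KIF20A, KIF23, KIF4A, CENPE, CENPF, NDC80, BUB1, BUB1B, CDC20, ESPL1, NCAPG, NCAPH, TOP2A, MKI67, INCENP, TPX2, ASPM, DLGAP5, ECT2, PRC1 and RACGAP1. These calls rested on S1-11 and S2-06. Without S2-06, 9 genes were called (BUB1B, CDK1, CENPE, CENPF, KIF20A, NCAPH, PRC1, RACGAP1 and TOP2A; 5.2% of all genes were called higher), and without S1-11, 18 (3.61% of all genes). With both left out, a check added after the data were seen, none of the 26 remained, the median log2 fold change was 0.25, and the only member called was AURKB, lower in FS. AURKB had as few as 2 counts in a tumor, and 217 of 15025 genes were called lower in that fit. Among the 9 tumors with the prefix S1 alone, 14 of 43 genes tested were called, all higher (3.4% of all genes). With the histological diagnosis in place of molecular identity, 16 of the 48 were called higher (1.24% of all genes), and with the prefix as a term 33 (5.59%). A stricter filter, at least 20 counts in at least 8 tumors, left 26 of the 48 to test, of which 16 were called higher (5.36% of all genes).

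**Figure D3:**
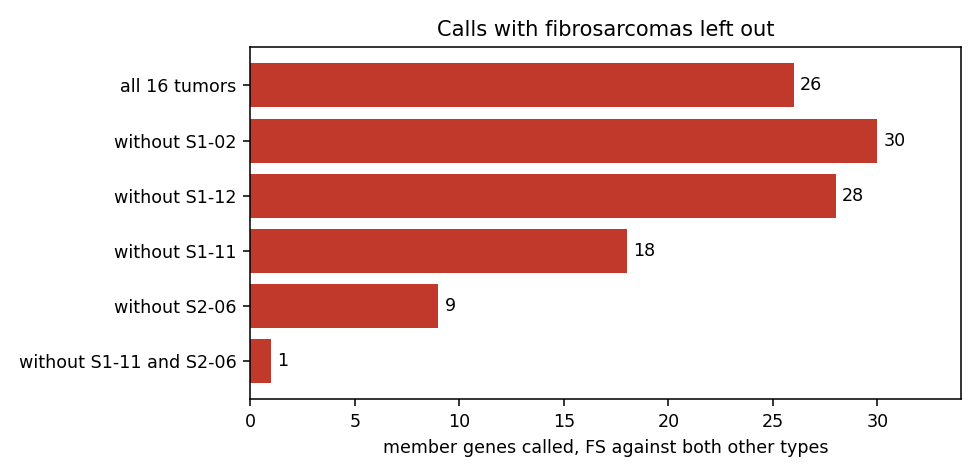
Bars give the number of the genes called in FS against both other types by edgeR (x axis, from 0) with all 16 tumors and with the named fibrosarcomas left out. The number was 26 with all tumors, 18 without S1-11 and 9 without S2-06, and the 1 gene called without both was AURKB, lower in FS and not among the 26.

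The second comparison asked what sets PNST apart from both other types. The study lists CDK1, CCNA2, KIF11, KIF14, KNL1, SHCBP1 and SMC2 among the genes most significantly lower in PNST in these same tumors. Low estimates of these genes in PNST are therefore not an independent result. All but 1 of the 48 genes had a negative estimate, with a median log2 fold change of -1.29 against -0.06 over all genes, but no gene passed the test: edgeR called 0 of 48 members and 0 of 15408 genes (0% of all). At an unadjusted p under 0.05, 34 of the 48 were lower, as were 9.1% of all genes. The smallest adjusted p was 0.095, for KNL1 and KIF11 by edgeR's quasi-likelihood test with Benjamini-Hochberg adjustment. The Wald test of DESeq2, run as an alternative on 36420 genes, called 17 of 50 members lower and none higher (0.563% of all genes were called lower). With S1-11 and S2-06 left out, 25 of 46 genes were lower in PNST at an unadjusted p under 0.05, with a median of -0.75. In that fit 2486 of 15025 genes had such a p in either direction, and the median over all genes was -0.04.

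The third comparison, PWT against both other types, called none of the 48 genes by edgeR or DESeq2 (2.12% of all genes were called by edgeR). Only NUSAP1 and INCENP had an unadjusted p under 0.05, against 22.4% of all genes. The median log2 fold change was -0.27, turned to 0.14 without S2-06 and to 0.53 without both S1-11 and S2-06, and was -0.96 with the prefix as a term.

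In pairs of types, which share tumors, 33 of the 48 genes were called higher in FS than in PNST (4.15% of all genes), with a median log2 difference of 1.78. Of the 26 genes called in FS against both others, 24 were among these 33. The other 9 were KIF20B, KNL1, TTK, SGO1, SMC2, SMC4, PLK4, ANLN and SHCBP1. Between FS and PWT, 17 were called higher in FS (6.15% of all genes), with a median of 1.19. With the prefix as a term these numbers were 27 (3.68% of all genes) and 24 (2.86%). Between PNST and PWT, none were called, where 0.0974% of all genes were called lower in PNST, and 19 of the 48 were lower in PNST at an unadjusted p under 0.05 (10.2% of all genes). That last difference moved with the prefix of the tumor names: its median of -0.75 was -0.14 with the prefix as a term.

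**Figure D4:**
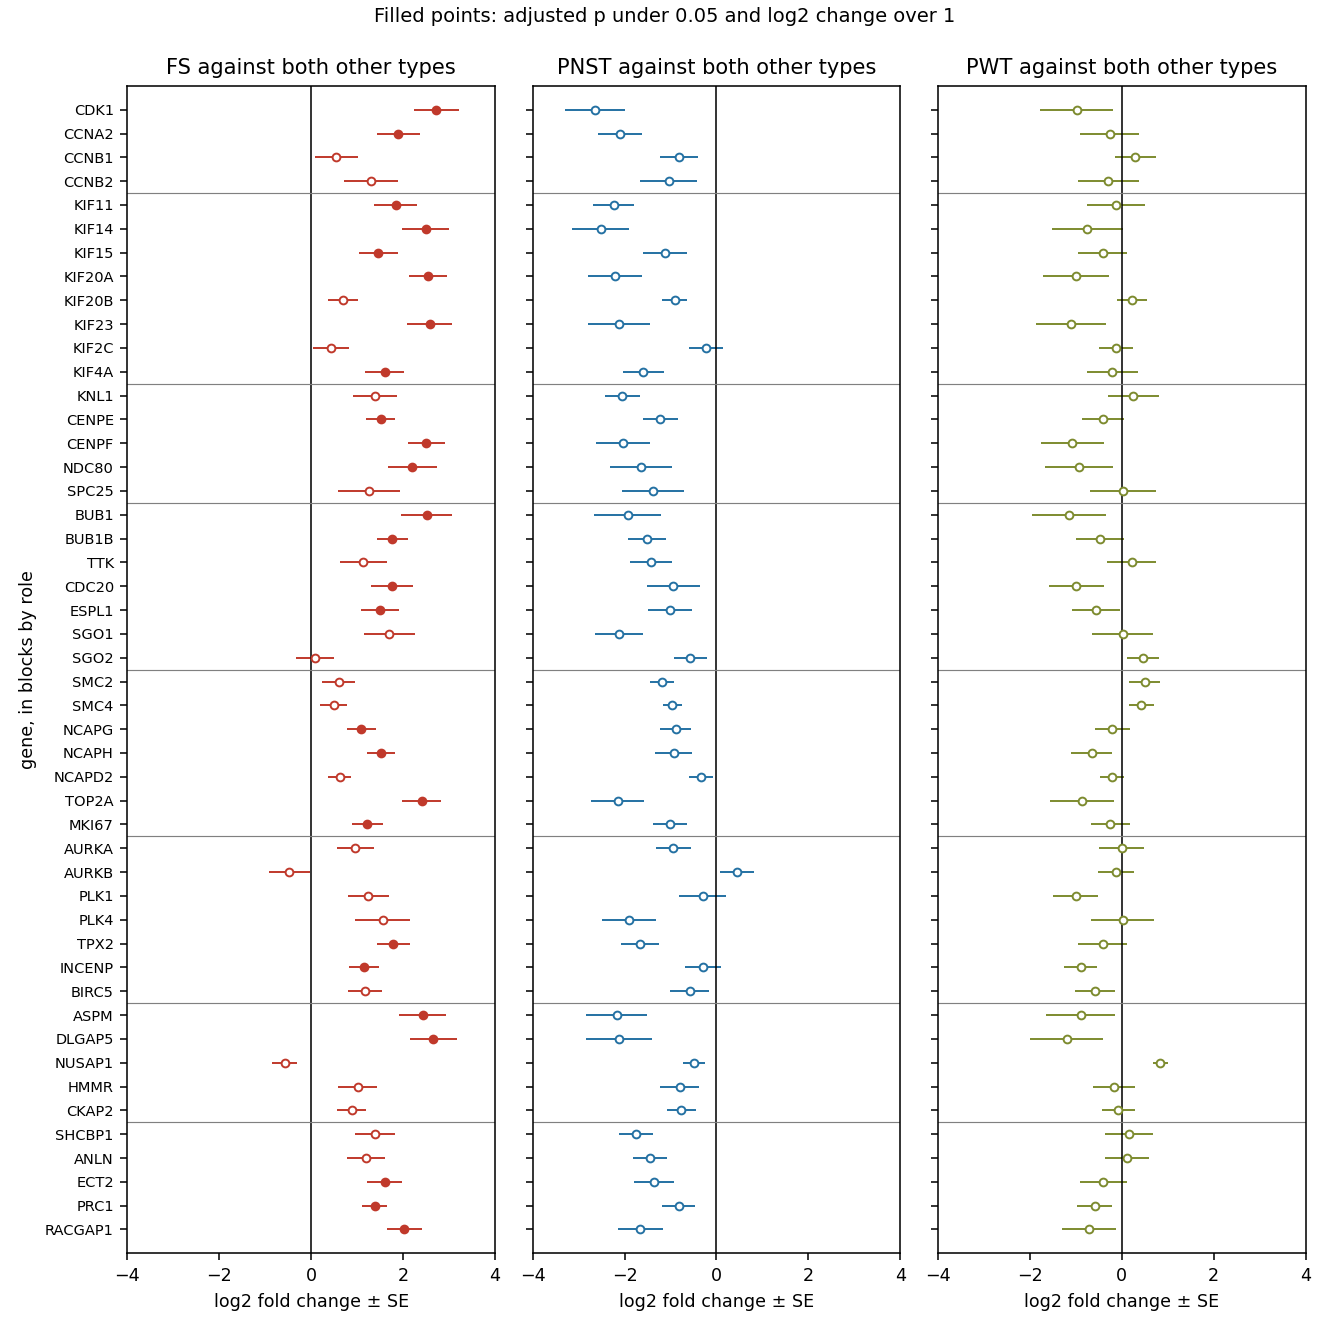
Points give the log2 fold change of each of the 48 genes (y axis, in blocks by role) in 1 type against both other types (x axis; bars are the standard error), and filled points passed the test. FS holds 26 filled points, all right of 0, and the PNST and PWT panels hold none.

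The cyclins and CDK1 drive entry into mitosis. CDK1, the kinase that starts mitosis, measured 25.5 CPM in S1-02, 38.4 in S1-11, 27.6 in S1-12 and 181 in S2-06. In PNST it ran from 4.22 to 8.8 CPM (median 5.14) and in PWT from 5.7 to 26.2 (median 15.4). All FS thus exceeded all PNST, and S2-06 stood far above the other FS. The log2 fold change in FS was 2.72 ± 0.49 (SE; edgeR, adjusted p = 0.0018), and in PNST it was -2.64 ± 0.64 (adjusted p = 0.132). CCNA2, cyclin A2, a partner of CDK1, measured 17.6, 26.9, 14.7 and 103 CPM in S1-02, S1-11, S1-12 and S2-06. In PNST it spanned 3.26 to 8.24 (median 6.32), below all PWT at 10.3 to 26.2 (median 15). CCNA2 was 1.89 ± 0.47 higher in FS on the log2 scale (edgeR, adjusted p = 0.0143). The B-type cyclins, which also activate CDK1, were not called: the FS estimates were 0.55 ± 0.47 for CCNB1 and 1.30 for CCNB2, with as few as 1 and 0 counts in a tumor.

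Kinesins are motor proteins that walk along microtubules, and 6 of 8 rose in FS. KIF11, the motor that pushes the spindle poles apart, measured 20.1 CPM in S1-02, 50.4 in S1-11, 47.9 in S1-12 and 107 in S2-06. It reached only 4.35 to 12.2 in PNST (median 7.71) and 11.4 to 40.4 in PWT (median 23.8). The FS estimate was 1.84 ± 0.47 (edgeR, adjusted p = 0.0187), and the PNST estimate of -2.24 ± 0.44 came with an adjusted p of 0.095. KIF20A, which works in cytokinesis, measured 15.4, 57, 14.7 and 90.3 CPM in the same order of FS, 2.34 to 7.97 in PNST (median 5.27) and 6.97 to 15.7 in PWT (median 9.14). Its FS estimate was 2.55 ± 0.41 (edgeR, adjusted p = 0.00101), and it was among the calls that held without S2-06. KIF23, a motor of the central spindle, had 18.3, 30.2, 11 and 181 CPM in FS, so that S1-12 lay within the PNST range of 3.92 to 11.3 (median 7.09) while S2-06 was far above the PWT range of 7.41 to 19.1 (median 12.6). KIF14, another cytokinesis motor, had 44.5 CPM in S1-02, 21.4 in S1-11, 11 in S1-12 and 116 in S2-06. Its range was 2.24 to 7.59 in PNST (median 4.27) and 5.13 to 23.2 in PWT (median 14.1), and its FS estimate was 2.49 ± 0.51 (edgeR, adjusted p = 0.00467). KIF15 and KIF4A were called too. KIF20B (0.69 in FS) and KIF2C, a microtubule depolymerase (0.42 ± 0.39 in FS), were not.

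Of 7 kinetochore genes 5 could be tested, and CENPE, CENPF and NDC80 rose in FS. NDC80 reached 10 counts in only 4 tumors and was highest in S2-06 (35.6 CPM). Its lowest FS (1.84 CPM, 1 count in S1-12) lay within the ranges of PNST (1.45 to 4.09) and PWT (0 to 8.23). Of the fits that each left out 1 tumor, it could be tested in 12. CENPF, a large protein of the outer kinetochore, measured 28.3 CPM in S1-02, 123 in S1-11, 64.5 in S1-12 and 277 in S2-06. PNST lay at 12.3 to 20.4 (median 16.3) and PWT at 16.7 to 49.7 (median 22.8), so that FS and PNST did not overlap. The FS estimate of 2.50 ± 0.40 had the smallest adjusted p of the 48 genes (edgeR, 0.000929). KNL1, the scaffold on which checkpoint proteins gather, measured 17.2, 60.3, 20.3 and 68.4 CPM in S1-02, S1-11, S1-12 and S2-06. In PNST it ran from 6.34 to 10.1 (median 6.92), below every PWT (13.7 to 44.9, median 23.6) and every FS. KNL1 did not pass the test in FS (1.39 ± 0.48, edgeR, adjusted p = 0.0698), nor in PNST (-2.05 ± 0.38, adjusted p = 0.095), but differed between FS and PNST (2.45 ± 0.40, adjusted p = 0.00179). CENPE, a kinesin of the kinetochore, was higher in FS by 1.51 ± 0.32. SPC25 stayed uncalled at 1.25.

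The spindle checkpoint delays separation of the chromosomes until all are attached, and its genes were called in part. BUB1B, a checkpoint kinase, measured 11.5 CPM in S1-02, 30.2 in S1-11, 16.6 in S1-12 and 46.1 in S2-06, against 4.22 to 7.29 in PNST (median 5.9) and 6.46 to 15 in PWT (median 10). Its FS estimate was 1.77 ± 0.34 (edgeR, adjusted p = 0.00305). BUB1 (2.51 ± 0.55), CDC20, the activator of the anaphase-promoting complex (1.76 ± 0.46), and ESPL1, the protease that cuts cohesin (edgeR, adjusted p = 0.0258), were called as well. In CDC20 the gap came from 2 FS alone, with 42.2 CPM in S1-11 and 29.5 in S2-06 but 5.74 in S1-02 and 1.84 in S1-12, against 5.61 to 6.88 in PNST. BUB1 and ESPL1 were likewise uneven, each highest in S2-06 (59.9 and 40.4 CPM) with a lowest FS of 1.84 CPM. In CDC20, BUB1 and ESPL1 this value is 1 count in S1-12, the shallowest tumor. The PNST ranges of BUB1 and ESPL1 were 1.09 to 4.55 and 4.35 to 8.76. Without S1-11 and S2-06 the FS estimates were 0.09 for BUB1 and -0.02 for ESPL1. SGO1, which guards cohesin at centromeres, measured 3.94, 8.77, 7.37 and 26.1 CPM in S1-02, S1-11, S1-12 and S2-06. It was at 0.725 to 2.83 in PNST (median 1.87) and 1.71 to 8.23 in PWT (median 6.14), and missed the threshold in FS (1.70 ± 0.55, edgeR, adjusted p = 0.0549). SGO2, the other shugoshin, measured 16.5 CPM in S1-02 and 101 in S2-06, 21.6 to 62.2 in PNST and 29.5 to 81.5 in PWT (FS estimate 0.08 ± 0.41). TTK, a checkpoint kinase, was not called either.

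Condensin winds chromosomes into compact form. In this group of 7 genes, NCAPG, NCAPH, TOP2A and MKI67 rose in FS. SMC2 measured 35.9 CPM in S1-02, 72.4 in S1-11, 68.1 in S1-12 and 145 in S2-06. In PNST it ran from 26.3 to 38.9 (median 35.1), below all PWT (50.9 to 107, median 67.3). SMC4, its partner in the core, measured 65.3, 87.7, 38.7 and 82.7 CPM in S1-02, S1-11, S1-12 and S2-06, 30.2 to 48 in PNST (median 30.8) and 42.7 to 75.4 in PWT (median 68.5). Neither was called in FS against both others (0.59 ± 0.36 and 0.49 ± 0.29), and FS differed from PWT by only 0.13 ± 0.30 and 0.10 ± 0.24. Both were called higher in FS than in PNST (1.26 ± 0.30 with adjusted p = 0.0175, and 1.02 ± 0.24 with adjusted p = 0.0158, edgeR). The regulatory subunits NCAPH (1.52 ± 0.30) and NCAPG (1.09 ± 0.32) were called in FS, and NCAPD2 (0.61) was not. No test of the difference between subunits was run. TOP2A, the topoisomerase that untangles DNA, measured 31.2 CPM in S1-02, 162 in S1-11, 49.7 in S1-12 and 292 in S2-06. It stayed at 12.7 to 21.9 in PNST (median 16.6) and 17.7 to 49.2 in PWT (median 39), and its FS estimate was 2.40 ± 0.43 (edgeR, adjusted p = 0.00178). MKI67, the Ki-67 antigen that pathologists stain to count cycling cells, measured 51.6 CPM in S1-02, 180 in S1-11, 35 in S1-12 and 118 in S2-06. Here S1-11 was the highest tumor, and S1-12 lay inside the ranges of PNST (25 to 50.8, median 31.6) and PWT (23.4 to 74.4, median 50.6). Its FS estimate was 1.22 ± 0.34 (edgeR, adjusted p = 0.028), smaller than that of TOP2A or CDK1.

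Among mitotic kinases and the passenger complex, only TPX2 and INCENP were called. TPX2, which activates Aurora A on the spindle, measured 38 CPM in S1-02, 84.4 in S1-11, 60.8 in S1-12 and 212 in S2-06. PNST spanned 12.7 to 26.4 (median 19.3), below all PWT at 29.9 to 51.6 (median 37.3), and below all FS. Its estimates were 1.78 ± 0.36 in FS (edgeR, adjusted p = 0.0039) and -1.66 ± 0.42 in PNST (adjusted p = 0.136). INCENP, the scaffold of the passenger complex, was higher by 1.15 ± 0.32 in FS, with PNST (10.1 to 23.8 CPM) and PWT (7.98 to 20.2 CPM) overlapping. AURKB, the kinase of that same complex, measured 1.79 CPM in S1-02, 17 in S1-11, 3.68 in S1-12 and 20.4 in S2-06, against 14.6 to 19.6 in all 6 PNST and 6.97 to 24.6 in PWT. The FS estimate for AURKB was -0.48 ± 0.44 (edgeR, adjusted p = 0.547). In the RefSeq table of another assembly its gene model overlaps 4 tRNA genes, and it was not tested whether their reads enter its count. AURKA, PLK1, PLK4 and BIRC5 had FS estimates of 0.96, 1.23, 1.55 and 1.17, none of which passed the test.

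Of 5 other spindle proteins, ASPM and DLGAP5 rose in FS. ASPM, which works at the spindle poles, had 22.9 CPM in S1-02, 106 in S1-11, 11 in S1-12 and 330 in S2-06. PNST lay at 9.95 to 18.5 (median 14.4) and all PWT above them at 18.8 to 46.4 (median 29.8), so that S1-12 fell within the PNST range. Its FS estimate was 2.42 ± 0.51 (edgeR, adjusted p = 0.00552). DLGAP5, which stabilizes spindle microtubules, measured 8.25, 22.5, 3.68 and 85 CPM in S1-02, S1-11, S1-12 and S2-06, 2.34 to 4.71 in PNST (median 3.77) and 1.14 to 9.84 in PWT (median 7). The FS estimate was 2.66 ± 0.52 (edgeR, adjusted p = 0.00305). NUSAP1, a microtubule-binding protein singled out after its values were seen, went the other way: 153 CPM in S1-02, 154 in S1-11, 158 in S1-12 and 113 in S2-06, 119 to 183 in PNST (median 160) and 191 to 338 in PWT (median 285). S2-06, the highest tumor for 42 genes, was thus the lowest for NUSAP1. NUSAP1 was higher in PWT by 0.84 ± 0.17 (edgeR, adjusted p = 0.0219), below the fold threshold for a call. In the RefSeq table of another assembly the gene model of NUSAP1 overlaps 4 other genes, among them OIP5, and it was not tested whether their reads enter its count. HMMR (1.01) and CKAP2 (0.88) were not called.

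Cytokinesis, the final cut between daughter cells, is covered by 5 genes, and all 5 were called higher in FS than in PNST, and RACGAP1, ECT2 and PRC1 also in FS against both others. RACGAP1, which with KIF23 forms the centralspindlin complex, measured 28 CPM in S1-02, 90.5 in S1-11, 29.5 in S1-12 and 110 in S2-06. It was at 4.35 to 17.3 in PNST (median 13.6) and 12.5 to 30.7 in PWT (median 19.8), with an FS estimate of 2.03 ± 0.38 (edgeR, adjusted p = 0.00237). PRC1, which bundles the central spindle, was higher by 1.38 ± 0.27 and ECT2, which starts the furrow, by 1.60 ± 0.38. ANLN, anillin, a scaffold of the contractile ring, measured 29 CPM in S1-02, 51.5 in S1-11, 35 in S1-12 and 107 in S2-06, against 12.3 to 19.9 in PNST (median 15.6). In PWT it ran from 17.7 to 73.3 (median 29.9), the highest being S2-11, a grade 3 tumor. SHCBP1, a partner of centralspindlin, measured 9.68, 8.22, 16.6 and 25.2 CPM in S1-02, S1-11, S1-12 and S2-06, 2.24 to 4.55 in PNST (median 3.03) and 3.99 to 13.5 in PWT (median 8.08). Its FS estimate of 1.38 ± 0.44 missed the threshold (edgeR, adjusted p = 0.051), while the difference between FS and PNST passed it (2.18 ± 0.40, adjusted p = 0.00434).

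The genes varied together over the 16 tumors. The median Pearson's r of log2 CPM over the 1128 pairs of the 48 genes was 0.675, against 0.002 over all pairs of the 15408 genes, and 73.3% of the pairs of members exceeded 0.5, against 6.38% of all pairs. Against the mean of the other members, r exceeded 0.8 for 27 genes, with TOP2A (0.955), KIF23 (0.952) and ASPM (0.951) closest to it. It was under 0.5 for NUSAP1 (-0.194), AURKB (0.0417), KIF2C (0.405) and PLK1 (0.495). These values describe 16 tumors that share 2 high ones. Without S1-11 and S2-06, the median r of a gene with the other members fell from 0.845 to 0.700, and 20 of 48 genes were under 0.5. KNL1 (0.905), CCNA2 (0.901), ANLN (0.893), KIF11 (0.891) and SGO1 (0.889) were then closest to the rest, while PLK1 (-0.298) and AURKB (-0.387) ran opposite to it.

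The 10 genes outside the set whose log2 CPM followed the mean of the 48 most closely, by Spearman's rho over 16 tumors, were RRM2 (0.929), MCM6 (0.912), LOC487476 (0.903), ATAD2 (0.891), CDCA2 (0.876), CEP152 (0.874), SPAG5 (0.874), DEPDC1 (0.871), NEK2 (0.868) and DIAPH3 (0.862). RRM2, a subunit of ribonucleotide reductase, averaged 61.5 ± 33.3 CPM in FS (SD, n = 4), 10.8 ± 3.28 in PNST (n = 6) and 29.1 in PWT. The study itself lists RRM2, ATAD2 and DIAPH3 as lower in PNST in these tumors. Of the 100 genes most like the mean, 26 were members, which also entered that mean.

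Related gene lists, chosen with the members and likewise with earlier results known, moved to unequal degrees, and differences between lists were not tested. Over all 15408 genes tested, 5.78% were called higher in FS and 567 genes were called lower. Among other mitotic genes 16 of 28 tested rose in FS and none fell (median 1.22). Among other kinetochore and centromere genes it was 5 of 27 (CENPL, CENPT, HJURP, KNTC1 and MIS12; median 0.47). DNA replication genes rose in 6 of 21 (median 0.85), regulators of cell cycle genes in 7 of 20, E2F1, FOXM1 and MYBL2 among them, with RBL2 falling (median 0.67), and G1 cyclins, kinases and inhibitors in 6 of 16, with CDKN1C falling (median 0.87). None of 12 condensin II and cohesin genes and none of 15 genes of the anaphase-promoting complex were called (medians 0.02 and 0.01). In lists this small, no call is near the share of all genes. In PNST none of these lists held a call by edgeR, and neither did any of the 15408 genes. The smallest unadjusted p in PNST belonged in each list to CENPI (-1.57 ± 0.45) and KNTC1 (-2.36 ± 0.68), DIAPH3 (-1.83 ± 0.39) and NEK2 (-2.27 ± 0.49), NCAPD3 (-0.78 ± 0.28) and NIPBL (-0.37 ± 0.16), CDC27 (-0.60 ± 0.22) and FBXO5 (-1.01 ± 0.43), E2F8 (-1.89 ± 0.56) and MYBL2 (-1.76 ± 0.54), WEE1 (-1.32 ± 0.38) and CCND1 (1.26 ± 0.33), and RRM2 (-1.95 ± 0.39) and MCM6 (-1.19 ± 0.40). CCND1, cyclin D1, was the 1 gene of these with a higher estimate in PNST, at 69.5 to 196 CPM against 21.9 to 104 in FS and 26.2 to 77.1 in PWT (edgeR, adjusted p = 0.154). Low estimates of DIAPH3 and RRM2 are not an independent result, as the study lists both as lower in PNST in these tumors.

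A pathologist counted mitotic figures under the microscope, and the study's clinical table holds 2 such counts for each tumor. The second of these counts was used here as a covariate, on the scale log2(count + 1). With edgeR, 0 of 48 members and 0% of all 15408 genes were called for a slope on this count. At an unadjusted p under 0.05, 34 members rose with it, as did 7.07% of all genes, with a median slope of 0.33 per doubling against 0.01 over all genes. CDK1 had the steepest slope, 0.70 ± 0.13 (edgeR, adjusted p = 0.121). The slopes of KIF23 (0.58 ± 0.13), ASPM (0.57 ± 0.13), CENPF (0.51 ± 0.13), TOP2A (0.49 ± 0.13), TPX2 (0.42 ± 0.10), BUB1B (0.41 ± 0.10) and ANLN (0.32 ± 0.10) were the ones with the smallest p in their role groups. With the first count in place of the second, 10 members were called, all rising (0.318% of all genes), and DESeq2 called 7 with the second count, all rising (0.662% of all genes). With tumor type as a term none of the 48 had an unadjusted p under 0.05, where 434 of all 15408 genes did, in either direction. Without S2-06, 7 of 47 members had such a p, where 968 of 15202 genes did.

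**Figure D5:**
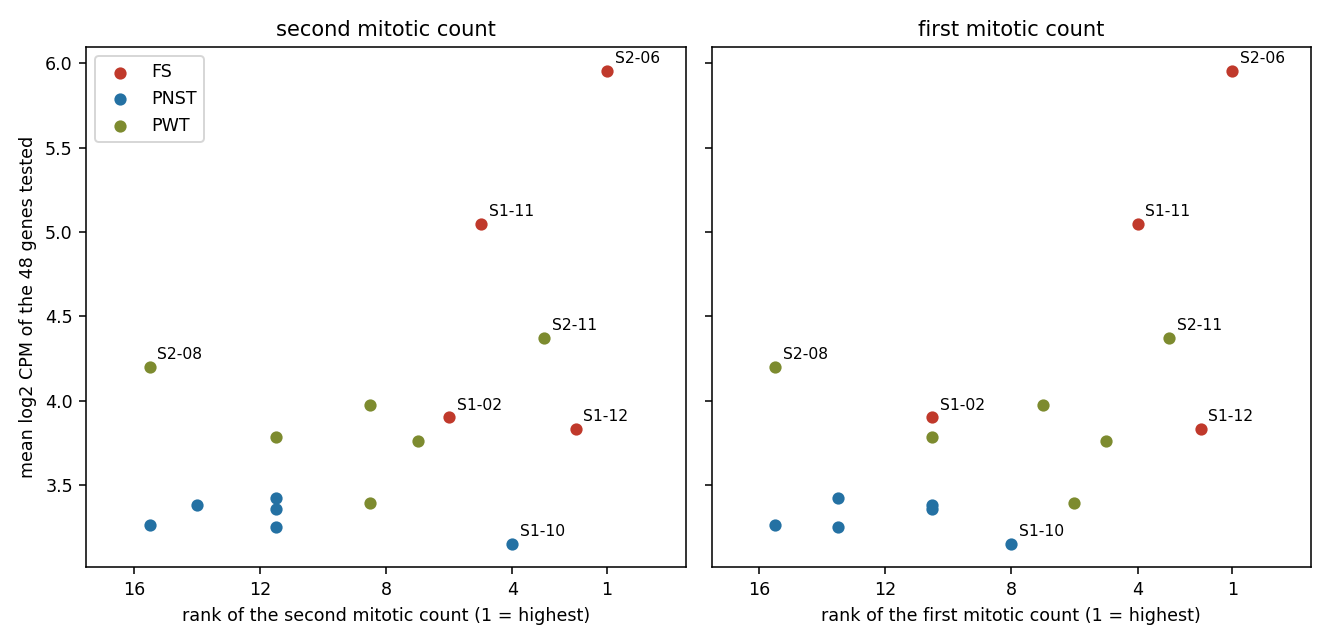
Points are the 16 tumors, colored by type, with the rank of the second (left) or first (right) mitotic count on the x axis (1 is the highest count) and the mean log2 CPM of the 48 genes tested on the y axis. S2-06 has rank 1 on both axes, S1-10 ranks 4 by the second count and 16 by gene level, and S2-08 has a count tied for the lowest beside rank 4 by gene level.

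Gene by gene, Pearson's r between log2 CPM and this count over 16 tumors was positive for 47 of 48 members, with a median of 0.473 against -0.025 over all genes, and 22 had a positive r with an unadjusted permutation p under 0.05. In either direction, 1428 of all 15408 genes had such a p. By Spearman's rho, 14 members had a positive rho with such a p, where 1418 of all genes had one in either direction. No member passed Benjamini-Hochberg adjustment over all 15408 genes (100000 permutations, two-sided; smallest adjusted p of a member 0.503 for r and 0.477 for Spearman's rho). For CDK1, r was 0.654 (permutation p = 0.0046) and rho 0.642 (permutation p = 0.00841), and for KIF20A r was 0.652 (permutation p = 0.00443) and rho 0.734 (permutation p = 0.00158). With the 2 tumors farthest from the median count, S2-06 and S1-12, left out, r was 0.454 for CDK1 and 0.499 for KIF20A, and the median over members was 0.270. Within the 9 S1 tumors the median r was 0.350 and within the 7 S2 tumors 0.612. Tumors whose rank by count and by gene level lay far apart were S1-10 (rank 4 by count and 16 by the mean of the 48 genes), S2-08 (tied for the lowest count, rank 4 by genes) and S1-12 (rank 2 by count and 7 by genes). By the first count S1-10 had rank 8. Between the mean log2 CPM of the 48 genes and the second count, Pearson's r was 0.545 over the 16 tumors and 0.162 over the 12 PNST and PWT, given as a description. Without S1-10, 10 members were called for a slope on the second count, all rising (0.724% of all genes).

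Tumor grade, which in this scheme includes a mitotic score, gave the same kind of picture when tumor type was not a term. Of the 48 genes 36 rose with grade at an unadjusted p under 0.05, against 3.45% of all genes, but edgeR called 0 members and 0% of all genes, and DESeq2 called 0 members. The median slope was 0.79 per grade. With tumor type as a term, 7 of the 48 rose at such a p, and the median slope was 0.41. In that fit 1185 of 15408 genes had such a p in either direction. Grade was unevenly spread over the types. FS were graded 1.5 (1 tumor), 2 (2) and 3 (1), PNST 1 (3), 1.5 (1) and 2 (2), and PWT 1 (4), 2 (1) and 3 (1). Only S2-06 (FS) and S2-11 (PWT) were grade 3. Without S2-06, 2 of 47 members had an unadjusted p under 0.05, where 633 of 15202 genes did, in either direction. S2-11 had the highest summed level of the 6 PWT.

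Markers of other cell types were measured beside these results. Every marker of the 10 lists (6 to 11 genes each) had counts in each type. Spearman's rho between a list's summed CPM and the mean of the 48 genes over 16 tumors ran from -0.271 for skeletal muscle to 0.324 for pericyte and smooth muscle. Summed pericyte and smooth muscle markers were 618 to 2118 CPM in FS, 441 to 940 in PNST and 425 to 870 in PWT. Macrophage markers were 138 to 1161 CPM in FS, 194 to 562 in PNST and 165 to 516 in PWT, T cell markers 9.32 to 87.1, 21.1 to 84.1 and 22.9 to 102, and B and plasma cell markers 9.32 to 119, 13.1 to 48.1 and 12.0 to 40.8. Endothelial markers were 204 to 492, 116 to 590 and 162 to 467 CPM, and keratinocyte markers, which mark overlying skin, 26.6 to 1663, 11.8 to 1591 and 11.1 to 1299. Schwann cell markers summed to 42.4 to 107 CPM in FS, 45.2 to 251 in PNST and 34.4 to 112 in PWT, so the ranges of the 3 types overlapped. Fibroblast markers summed to 19328 to 100793 CPM in FS, 18323 to 37633 in PNST and 10328 to 24431 in PWT. Skeletal muscle markers stood at 5.23 to 1003, 6.03 to 11.7 and 3.23 to 451 CPM, and adipocyte markers at 33.1 to 86.4, 17.6 to 165 and 4.18 to 91.6 CPM, in FS, PNST and PWT. S1-11, one of the tumors on which the FS calls rested, held the highest fibroblast (100793 CPM), skeletal muscle (1003 CPM) and pericyte and smooth muscle (2118 CPM) sums, whereas S2-06 had 19328, 5.23 and 618 CPM, the lowest of FS for each. Between log2 counts on genes and the mean of the 48 genes, Pearson's r was -0.192 and Spearman's rho -0.412 over the 16 tumors. The part of these cells and of depth in the levels of the mitotic genes was not tested.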

How the data were processed

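The authors extracted RNA from 2 FFPE sections per tumor, depleted ribosomal RNA, made Ion Total RNA-Seq libraries and sequenced them on an Ion Proton in 2 groups. Reads were aligned to ROS-canfam-01 with STAR2 and counted with htseq-count, and the deposited table holds these raw counts per gene; versions and the strand setting are not given in the sources used here, so overlapping genes (22 of the 50 members in the RefSeq table of UU_Cfam_GSD_1.0, another build) are uncertain. Here the 3 runs of each S1 tumor were summed, and 5 rows that name no gene were left out, with reads outside genes (41.8% to 66.7% of those listed), with several alignments (9.11% to 31.6%) or ambiguous (0.41% to 1.68%) among them. Over the members, runs of 1 tumor differed by a chi-square per degree of freedom of 0.951 to 1.44.

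Counts were fitted with edgeR 4.0.16 (TMM, quasi-likelihood test) in R 4.3.3, each type against both others, with genes of at least 10 counts in at least 4 of 16 tumors. Calls needed a Benjamini-Hochberg adjusted p under 0.05 and, for types, a log2 fold change over 1. Slopes were fitted on log2(mitotic count + 1), read from the study's clinical table as a covariate only, and on grade (1/2 taken as 1.5). DESeq2 1.42.0, other scalings and filters, the prefix, histological groups and tumors left out were alternatives. Leaving out S1-11 and S2-06 together and the prefix as a term for pairs of types were added after the data were seen. Fits were tested on simulated data. The authors' own comparisons did not enter these fits.

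The members and lists were chosen with earlier results of these data known, so no p was computed for the set. Genes were named by role: the smallest unadjusted p of each group in FS, in PNST and for the mitotic count, all genes called, genes named in the study's text, MKI67, up to 2 genes per related list with the smallest p in PNST, and the 10 non-members most like the mean. AURKB, NUSAP1, SGO2, the cyclins B and other uncalled members were added after their values were seen. P-values measure the spread between tumors, 1 sample each.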

Additional observations from a re-analysis of the deposited data

Results flagged for a closer look

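A gap of 1 tumor to the others of its type, large beside the range of the type by Dixon's test, was found in 7 of 123 groups. Chance alone gives about 5%, so the number of gaps was near chance. In FS it was S2-06 each time: the summed CPM of the cyclins and CDK1 (314 CPM), CDK1 (181 CPM), CCNA2 (103 CPM) and KIF23 (181 CPM) there stood apart from the other 3 FS. That sum contains CDK1 and CCNA2, so these gaps are not independent. In PWT, ANLN in S2-11 (73.3 CPM) was high and SMC4 in S1-07 (42.7 CPM) was low beside the other 5. In PNST, SMC4 in S1-03 (48 CPM) was high beside the other 5. Their causes were not tested.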

How the results depend on the processing

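For FS, 26 of 48 members were called. The number was 14 among S1 tumors only (3.4% of all genes called higher) and 16 with histological groups (1.24%). It was 16 of 26 genes tested with at least 20 counts in at least 8 tumors (5.36%, with fewer genes tested). Without S1-11 and S2-06 together it was 1 (AURKB, lower, with as few as 2 counts in a tumor, and 0 of the 26). In that fit S1-02 and S1-12 were the only FS, and 360 of 15025 genes were called higher. The number ran from 9 to 30 over the 16 fits that each left out 1 tumor (9 without S2-06). For PNST the count of 0 became 17 with DESeq2 and stayed at 0 over tumors left out. For PWT and for grade it was 0 under every alternative run, also without any single tumor. For the mitotic count, 0 became 10 with the first count, 7 with DESeq2, 1 without a filter, and 0 to 10 over tumors left out (10 without S1-10, 1 without S2-11). The median log2 change in PWT, -0.27, ran from -0.40 to 0.14 over tumors left out (0.14 without S2-06) and was 0.53 without S1-11 and S2-06, so it turned sign. PWT was not run among S1 tumors, which hold 1 PWT. Without S1-11 and S2-06, 14 of 46 FS estimates turned sign, among genes called those of ASPM (-0.31), CDC20 (-0.47), ESPL1 (-0.021) and KIF15 (-0.16), and 8 of 46 mitotic slopes, BUB1 (-0.068) and ESPL1 (-0.088) among them. With tumor type as a term 9 of 48 mitotic slopes turned, ECT2 (-0.00065) and RACGAP1 (-0.0086) among them. The cause of these changes was not tested. The log2 ratio of mean summed CPM, FS over PNST, was 1.57, and 1.36 to 1.68 under other scalings and as a mean of log2(CPM + 1). No paired analysis was possible because replicate numbers only name tumors in accession order. S1-12, with 507728 counts, limits low genes: 1 count there is worth 1.84 CPM after TMM adjustment and 1.97 before it.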

Other observations

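In the chromosomal passenger complex, AURKB was at 1.79 CPM in S1-02 and 3.68 CPM in S1-12, the lowest values of the 16 tumors, and at 17 and 20.4 CPM in S1-11 and S2-06. With S1-11 and S2-06 left out, AURKB was the only member called and was lower in the remaining FS, by -2.71 on the log2 scale. AURKB had as few as 2 counts in a tumor, so this estimate rests on few reads. INCENP (1.15 ± 0.32) and BIRC5 (1.17 ± 0.38) of the same complex had FS estimates of like size, with adjusted p of 0.0259 and 0.0518 by edgeR, and BIRC5 was called by DESeq2 (adjusted p = 0.0349). Among shugoshins, SGO1 differed between FS and PNST by 2.66 ± 0.55 (edgeR, adjusted p = 0.0081), and SGO2 had 0.44 ± 0.43 (adjusted p = 0.598). Differences between genes of a complex were not tested.

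S2-08 was from the youngest dog (2 years) and was an FS by histology. It exceeded every PNST for 37 of the 48 genes, had a mitotic count tied for the lowest, and was grade 1.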
